A study of Homo sapiens with 4 samples.

Results

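The 30 genes described here carry out heme synthesis and the handling of iron: the enzymes that build and break down heme, the receptors and transporters that bring iron into the cell, the ferritin subunits that store it, the exporter, the iron sensors and the makers of iron-sulfur clusters. They were chosen by name, each matching exactly 1 row among the 32673 genes in the expression table, and 29 of them reached a mean of 0.5 FPKM (the fragments of a gene scaled to its length and to the mapped fragments of the library) over the libraries and were tested together with 15519 genes in all. RNA sequencing was performed on imatinib-sensitive (TF1-BA) and imatinib-resistant (TF1-BAR) cells, 2 libraries each, as a model of chronic myeloid leukaemia in which resistance to this inhibitor of the BCR-ABL kinase was acquired. TF1 is an erythroleukaemia cell line that grows on GM-CSF, and both models carry the p210 form of BCR-ABL brought in by a retrovirus, while TF1-BAR cells were derived from them by continuous imatinib treatment. Per the labels, the medium of both held 2 ng/mL GM-CSF and 10% serum, that of TF1-BAR cells also held 2 uM imatinib, and each replicate took 10000000 cells. Whether imatinib was present when RNA was taken is not stated. The TF1-BAR libraries also carry the title of a vector, so resistance, a vector and the drug itself cannot be told apart. Nothing says that the libraries of a group came from separate cultures, so the p-values measure the spread between these libraries, which may be technical.

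Heme is made by a chain of enzymes that begins and ends in the mitochondrion: ALAS joins glycine and succinyl-CoA, ALAD, UROS and UROD help to build and trim the ring in the cytosol, and CPOX, PPOX and FECH finish it and insert iron. Heme oxygenase opens the ring and frees the iron, and biliverdin reductase turns the product into bilirubin. Iron enters with transferrin through the transferrin receptor and is stored inside ferritin, a shell of heavy (FTH1) and light (FTL) chains. When iron is scarce, the iron regulatory proteins bind a short hairpin in messenger RNAs, the iron-responsive element, which blocks translation where it lies before the coding sequence and protects the transcript where it lies after it. Erythroid cells are the body's largest makers of heme, because they need it for haemoglobin.

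These hairpins are shown because they are a known route by which iron acts on some of these transcripts, which bears on how far a transcript level can be read as a protein level. A search for the loop CAGTGN, preceded by an unpaired C and flanked by 5 paired bases on each side, was made in the GENCODE 44 MANE Select transcripts (genome build GRCh38). It found the element before the coding sequence in 4 members and after it in 1 member. Each is given 5′ to 3′ as DNA with 5 further bases on each side and the 6 bases of the loop in capitals. The first 4 lie in the 5′ untranslated region, in exon 1 of each transcript. The FTL element is on the plus strand at chr19:48965336-48965362, and the others are on the minus strand, at chr11:61967575-61967601 for FTH1, chrX:55030942-55030968 for ALAS2 and chr2:189580662-189580688 for SLC40A1.
FTL: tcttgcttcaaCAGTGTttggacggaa
FTH1: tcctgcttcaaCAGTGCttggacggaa
ALAS2: tcgttcgtcctCAGTGCagggcaacag
SLC40A1: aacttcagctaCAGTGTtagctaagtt
The other 4 all lie in the 3′ untranslated region of TFRC, in exon 19 of 19 on the minus strand, named A to D in the order of the transcript, at chr3:196050980-196051006, chr3:196050576-196050602, chr3:196050511-196050537 and chr3:196050464-196050490.
TFRC A: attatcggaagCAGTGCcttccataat
TFRC B: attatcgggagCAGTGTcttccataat
TFRC C: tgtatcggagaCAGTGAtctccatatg
TFRC D: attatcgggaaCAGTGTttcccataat
Across the annotation, 0.101% of 18763 5′ untranslated regions and 0.644% of 18780 3′ untranslated regions held a match. A match describes these letters only, other isoforms were not searched, and no binding was measured.

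The libraries held 18042299 and 15465497 fragments in TF1-BA cells and 15761642 and 16074303 in TF1-BAR cells, recovered from the FPKM as described under the processing. Of the 30 genes, 29 rested on at least 100 fragments in every library, and the tested ones on between 107 and 15899. These fragment numbers cover counting error only, and some may be multiples of those given. Of the erythroid markers, the regulators GATA1 (65.9 to 75.4 FPKM over the libraries) and KLF1 (45.4 to 64.7 FPKM) were well expressed in both cell lines. Both genes were lower in both TF1-BAR libraries without passing the test (log2 fold change −0.14 and −0.34, adjusted p = 0.164 and 0.0519 by limma). The levels of the other markers varied widely, with SLC4A1 (0.165 to 0.283 FPKM) and EPOR (20.6 to 28.5 FPKM) named after their values were seen. The sum of the list and the globin genes HBB and HBA2 are given with the last comparison. An exact permutation test of 2 against 2 libraries cannot give a two-sided p below 0.333, so the tests below are limma fits across all genes with Benjamini-Hochberg adjusted p-values.

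More of the heme and iron genes measured lower than higher in TF1-BAR cells. With an adjusted p under 0.05, 2 of 29 rose (ALAD and UROD) and 8 fell (HMOX1, FTL, NCOA4, FECH, BLVRB, STEAP3, UROS and GLRX5), which is 6.9% and 27.6% of them, against 16.3% of all genes tested higher and 10.5% lower. Differentially expressed genes, which also had to change at least 2-fold, numbered 1 in each direction, ALAD and HMOX1, against 3.05% of all genes higher and 1.69% lower. The median log2 fold change of the 29 was −0.12, against 0.07 over all genes tested. Of the 29 genes, 23 lay below 0, as did 6624 of the 15519 genes tested. On rescaling to TPM, CLPX, NFS1, PGRMC1, TFR2 and TFRC turned positive, so this count depends on the scaling. The 2 groups of libraries did not overlap for 20 of the 29 genes, a share of 69%, and the same held for 69.3% of all genes tested. Leaving out 1 library changed the counts: without TF1-BA replicate 2 none of the 29 passed the adjusted p by limma (9 had an unadjusted p under 0.05), without TF1-BA replicate 1 only HMOX1 did, and without TF1-BAR replicate 2 it was 5. Without any filter on low values, 4 of the 10 kept an adjusted p under 0.05 (ALAD, NCOA4, BLVRB and GLRX5).

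**Figure D1:**
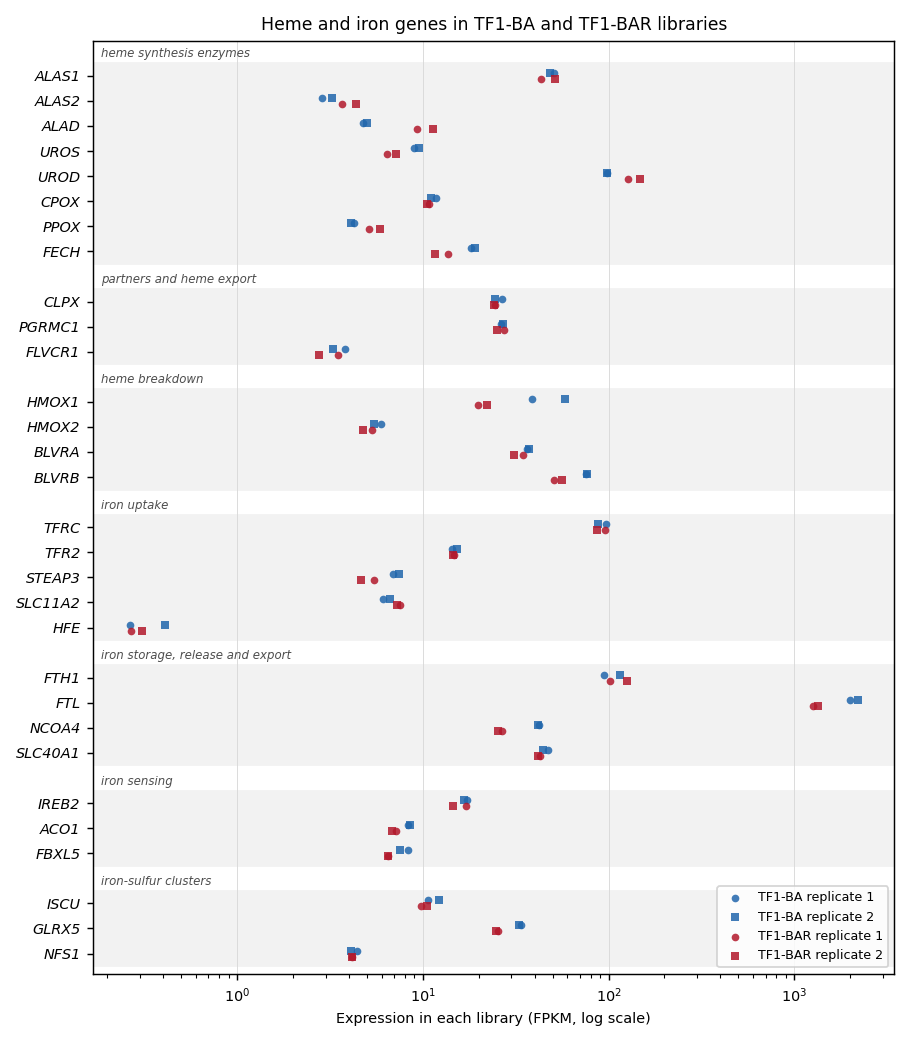
Expression of the 30 heme and iron genes in each library, in FPKM on a log axis, grouped by role, with TF1-BA libraries in blue and TF1-BAR libraries in red. FTL stood far above all the others, at 1256 to 2203 FPKM, and HFE far below, at 0.264 to 0.41 FPKM.

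**Figure D2:**
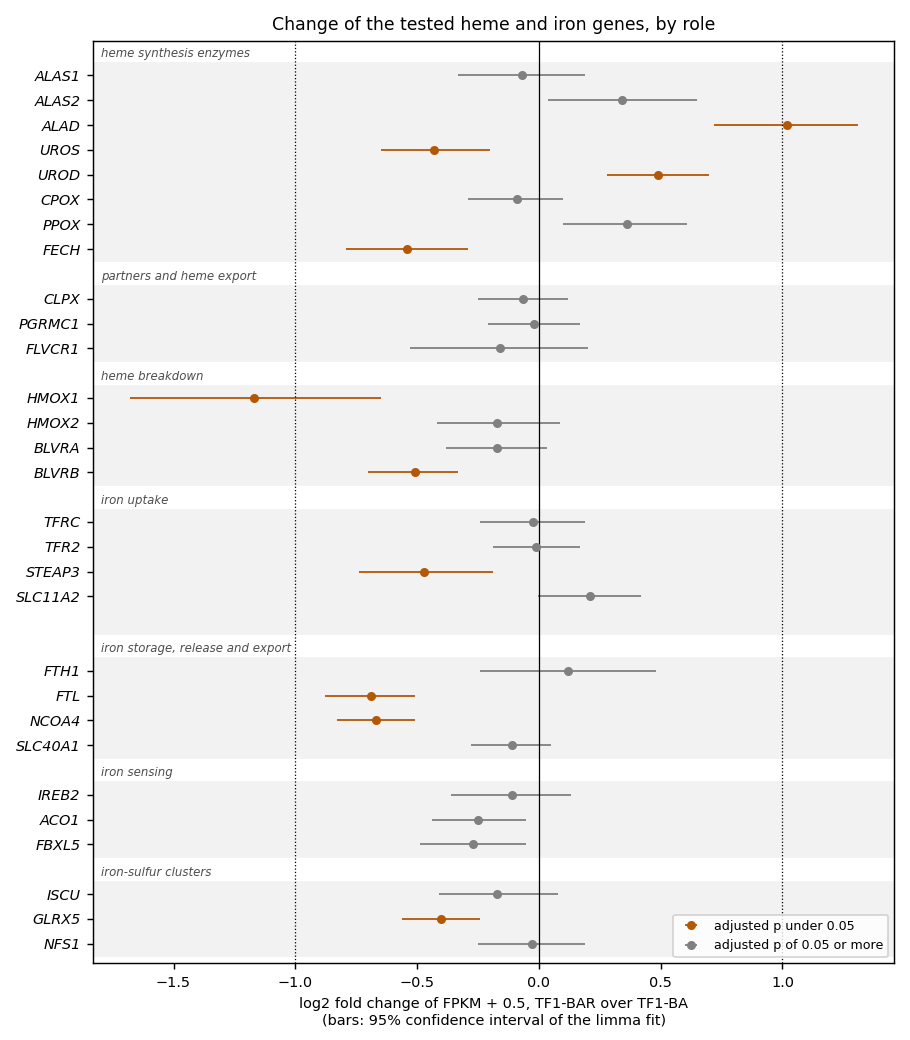
Log2 fold change (TF1-BAR over TF1-BA, on FPKM + 0.5) of the 29 tested genes with the 95% confidence interval of the limma fit, in orange where the adjusted p was under 0.05. The dotted lines mark a 2-fold change, which only ALAD and HMOX1 passed, and 8 of the 10 orange genes lie below 0.

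The enzymes of heme synthesis did not move as a unit: 2 of the 8 measured rose, 2 fell, and the median log2 fold change was 0.14. That is 25% in each direction, against 16.3% of all genes tested higher and 10.5% lower. ALAD, which joins a pair of aminolevulinic acid molecules into porphobilinogen, was expressed at 4.74 and 4.98 FPKM in TF1-BA cells and at 9.36 and 11.4 FPKM in TF1-BAR cells. Both TF1-BAR libraries were thus well above both TF1-BA libraries. ALAD (chromosome 9, 113386317 to 113401333, minus strand) had a log2 fold change of 1.02 (SE 0.115, adjusted p = 0.00825), a mean ratio of 2.14. This gene sat at the edge of the 2-fold threshold, and its log2 fold change ran from 0.93 to 1.09 over the alternative settings with all libraries. Leaving out either TF1-BA library raised its adjusted p to 0.0734 (without replicate 1) and 0.0704 (without replicate 2).

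UROD, which removes carboxyl groups from uroporphyrinogen, measured 97.9 and 98.3 FPKM in TF1-BA cells and 128 and 147 FPKM in TF1-BAR cells. It was the most abundant enzyme of the pathway in all 4 libraries, and its groups did not overlap. Its log2 fold change was 0.49 (SE 0.0815, adjusted p = 0.0178). On the other side, FECH, the ferrochelatase that inserts iron as the last step, fell from 18.2 and 19 FPKM to 13.7 and 11.7 FPKM (log2 fold change −0.54, SE 0.0966, adjusted p = 0.0204). UROS, which closes the ring, fell from 8.99 and 9.58 FPKM to 6.45 and 7.13 FPKM (log2 fold change −0.43, SE 0.0874, adjusted p = 0.0273), although its adjusted p was 0.0501 when the spread was modelled without a trend. UROS lies on chromosome 10, where the median of the 593 genes tested was −0.35, while the medians of the other chromosomes with members lay between −0.01 and 0.12, apart from 0.39 on chromosome 20, so the UROS value lay close to that of its chromosome. The part of the chromosome in the change of UROS was not tested.

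The first step is catalysed by different enzymes in different tissues, ALAS1 in nearly all cells and ALAS2 in erythroid cells. ALAS1 was far the more abundant here, at 50.8 and 48.1 FPKM in TF1-BA cells and 43.1 and 51.6 FPKM in TF1-BAR cells, with overlapping groups (log2 fold change −0.07, 95% interval −0.33 to 0.19, adjusted p = 0.65). ALAS2 measured only 2.88 and 3.24 FPKM in TF1-BA cells and 3.69 and 4.37 FPKM in TF1-BAR cells, from 107 to 150 fragments. Its groups did not overlap, but the difference did not pass the test (log2 fold change 0.34, adjusted p = 0.0925). The ratio of ALAS1 to ALAS2 was 17.6 and 14.8 in TF1-BA cells, and lower, at 11.7 and 11.8, in TF1-BAR cells. Both cell lines therefore carried mainly the transcript of the common enzyme.

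The oxidases near the end of the pathway did not pass the test in the main comparison. PPOX measured 4.27 and 4.1 FPKM in TF1-BA cells and 5.14 and 5.9 FPKM in TF1-BAR cells, without overlap (log2 fold change 0.36, adjusted p = 0.0546). PPOX did pass with a mean of at least 1 FPKM required (adjusted p = 0.045), on rescaling to TPM (0.0365) and by limma voom on recovered fragments (0.0165). PPOX shares 23.7% of its exon bases with B4GALT3 on the opposite strand, whose log2 fold change was 0.01, and whether the counting used strand is not stated. CPOX was at 10.5 to 11.8 FPKM in all libraries (log2 fold change −0.09, adjusted p = 0.408). Along the cytosolic steps the transcripts went in both directions, with ALAD and UROD higher and UROS lower in TF1-BAR cells.

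The partners of the pathway and the heme exporter were close to equal. CLPX, a mitochondrial chaperone that acts on ALAS, was at 24.1 to 26.6 FPKM over the libraries. PGRMC1, a heme-binding membrane protein, was at 25.1 to 27.5 FPKM. FLVCR1, which exports heme from the cell, was at 2.75 to 3.81 FPKM. None of these 3 passed the test (adjusted p = 0.522, 0.864 and 0.424) and the groups overlapped for all of them. Their 95% intervals of the log2 fold change were −0.25 to 0.12, −0.21 to 0.17 and −0.53 to 0.20, and changes within these intervals could not be told from none.

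Of the 4 genes of heme breakdown 2 fell, which is 50%, against 10.5% of all genes tested. All 4 had log2 fold changes below 0, as did 6624 of the 15519 genes tested. HMOX1, the inducible heme oxygenase that rises in cells under oxidative stress or heme load, was at 38.9 and 58.4 FPKM in TF1-BA cells and at 19.8 and 22.2 FPKM in TF1-BAR cells. The TF1-BA libraries differed widely from each other, but both lay above both TF1-BAR libraries. HMOX1 (chromosome 22, 35380361 to 35394214, plus strand) fell by 1.17 on the log2 scale (SE 0.2, adjusted p = 0.0185), and its mean was 56.8% lower, at 21 ± 1.74 FPKM against 48.7 ± 13.8 FPKM (SD, n = 2). The size of the change depended on the TF1-BA library used, since the log2 fold change was −1.46 (adjusted p = 0.0489) without TF1-BA replicate 1 and −0.88 (adjusted p = 0.0634) without TF1-BA replicate 2. Without TF1-BAR replicate 1 or 2 its adjusted p was 0.0802 and 0.0853.

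HMOX2, the constitutive heme oxygenase, was much lower in abundance, at 5.99 and 5.44 FPKM in TF1-BA cells and 5.32 and 4.74 FPKM in TF1-BAR cells (log2 fold change −0.17, adjusted p = 0.257). HMOX1 therefore exceeded HMOX2 by 6.5-fold and 10.7-fold in TF1-BA cells, but by only 3.72-fold and 4.69-fold in TF1-BAR cells. BLVRB, a flavin and biliverdin reductase abundant in red cells, fell from 75.8 and 76.6 FPKM to 50.6 and 56.2 FPKM (log2 fold change −0.51, SE 0.0723, adjusted p = 0.012). BLVRA, the main biliverdin reductase of adult tissues, was at 36.2 and 37.5 FPKM against 34.6 and 30.8 FPKM, lower in both TF1-BAR libraries but not past the test (log2 fold change −0.17, adjusted p = 0.17). The ratio of BLVRB to BLVRA went from 2.1 and 2.04 in TF1-BA to 1.46 and 1.82 in TF1-BAR.

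The main receptor of iron uptake differed little between the cell lines. TFRC, the transferrin receptor and the carrier of the 4 hairpins shown above, was at 97.2 and 88 FPKM in TF1-BA cells and 95.7 and 86.2 FPKM in TF1-BAR cells. The groups overlapped, the log2 fold change was −0.03 (adjusted p = 0.845), and its 95% interval was −0.24 to 0.19. TFR2, a second transferrin receptor made in liver and erythroid cells, was at 14.3 and 15.2 FPKM against 14.7 and 14.5 FPKM (log2 fold change −0.01, 95% interval −0.19 to 0.17, adjusted p = 0.923). TFRC was 5.77-fold to 6.81-fold above TFR2 in all 4 libraries. Both transferrin receptors turned sign when FPKM were rescaled to TPM, and no direction is given for them.

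Of the proteins that work behind the receptor, STEAP3, which reduces iron in the endosome, fell from 6.88 and 7.43 FPKM to 5.45 and 4.65 FPKM (log2 fold change −0.47, SE 0.105, adjusted p = 0.0338). STEAP3 lost the call when the spread was modelled without a trend (adjusted p = 0.0569). It also lost the call with a term for the replicate number (0.0512) and without a filter on low genes (0.094). SLC11A2, the transporter that carries the reduced iron into the cytosol, was at 6.08 and 6.63 FPKM against 7.55 and 7.28 FPKM, higher in both TF1-BAR libraries but not past the test (log2 fold change 0.21, adjusted p = 0.125). HFE, which binds the transferrin receptor, was under the limit for testing, at 0.264 and 0.41 FPKM in TF1-BA cells and 0.268 and 0.307 FPKM in TF1-BAR cells, from 24 to 36 fragments. With all genes fitted, low ones included, HFE had a log2 fold change of −0.08 (adjusted p = 0.754). What size of change could be seen for HFE at this depth was not tested. HFE shares 7.58% of its exon bases with the histone gene H2BC4 on the opposite strand, which was at 2.39 and 2.95 FPKM in TF1-BA cells and 0.913 and 0.821 FPKM in TF1-BAR cells (log2 fold change −1.21, adjusted p = 0.00891). The part of that overlap in the HFE values was not tested.

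The light chain of ferritin fell in TF1-BAR cells, and the heavy chain did not pass the test. The difference between the changes of the chains was itself not tested. FTL was at 2007 and 2203 FPKM in TF1-BA cells and at 1256 and 1344 FPKM in TF1-BAR cells. The groups lay far apart compared with the spread within each. FTL (chromosome 19, 48965301 to 48966878, plus strand) had a log2 fold change of −0.69 (SE 0.071, adjusted p = 0.00688), and its mean was 38.3% lower. The adjusted p of FTL was 0.0795 without a filter on low genes, and quantile normalization, which sets each gene's value by its rank within a library, gave a log2 fold change of −0.17 (adjusted p = 0.196), and without either TF1-BA library the adjusted p was 0.0661 (without replicate 1) and 0.0803 (without replicate 2).

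FTH1 was at 94.1 and 115 FPKM in TF1-BA cells and 102 and 125 FPKM in TF1-BAR cells, with overlapping groups (log2 fold change 0.12, 95% interval −0.24 to 0.48, adjusted p = 0.562). The ratio of the deposited FTL to FTH1 values was 21.3 and 19.1 in TF1-BA cells and 12.3 and 10.7 in TF1-BAR cells, lower in both TF1-BAR libraries. A common factor for a library leaves this ratio as it is, but quantile normalization narrowed the gap between the chains, with log2 fold changes of −0.17 for FTL and 0.15 for FTH1. The FTH1 value carries some doubt of its own. Processed copies of FTH1 fill 13 further rows of the table, 9 of them above 0, with a summed level of 2.93 and 4.02 FPKM in TF1-BA cells and 4.36 and 5.28 FPKM in TF1-BAR cells. Reads that match several copies may have been divided among them. In GENCODE 44, 63.2% of the exon bases of FTH1 also lie in BEST1 on the opposite strand, which was at 0.192 to 0.319 FPKM. For FTL, 3 rows of copies summed to at most 0.313 FPKM in a library.

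NCOA4, the receptor that delivers ferritin to the lysosome and so releases its iron, fell as well. It was at 42.1 and 41.5 FPKM in TF1-BA cells and 26.8 and 25.4 FPKM in TF1-BAR cells, with replicates close together in both. NCOA4 (chromosome 10, 46005088 to 46030714, minus strand) had a log2 fold change of −0.67 (SE 0.0629, adjusted p = 0.00603), the smallest adjusted p among the 30 genes. It lies on chromosome 10 too, and its change was larger than the chromosome's median of −0.35. SLC40A1, or ferroportin, the only known iron exporter of human cells, was at 47 and 44.2 FPKM against 42.5 and 41.7 FPKM. It was slightly lower in both TF1-BAR libraries, but the test was not passed (log2 fold change −0.11, 95% interval −0.28 to 0.05, adjusted p = 0.239).

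**Figure D3:**
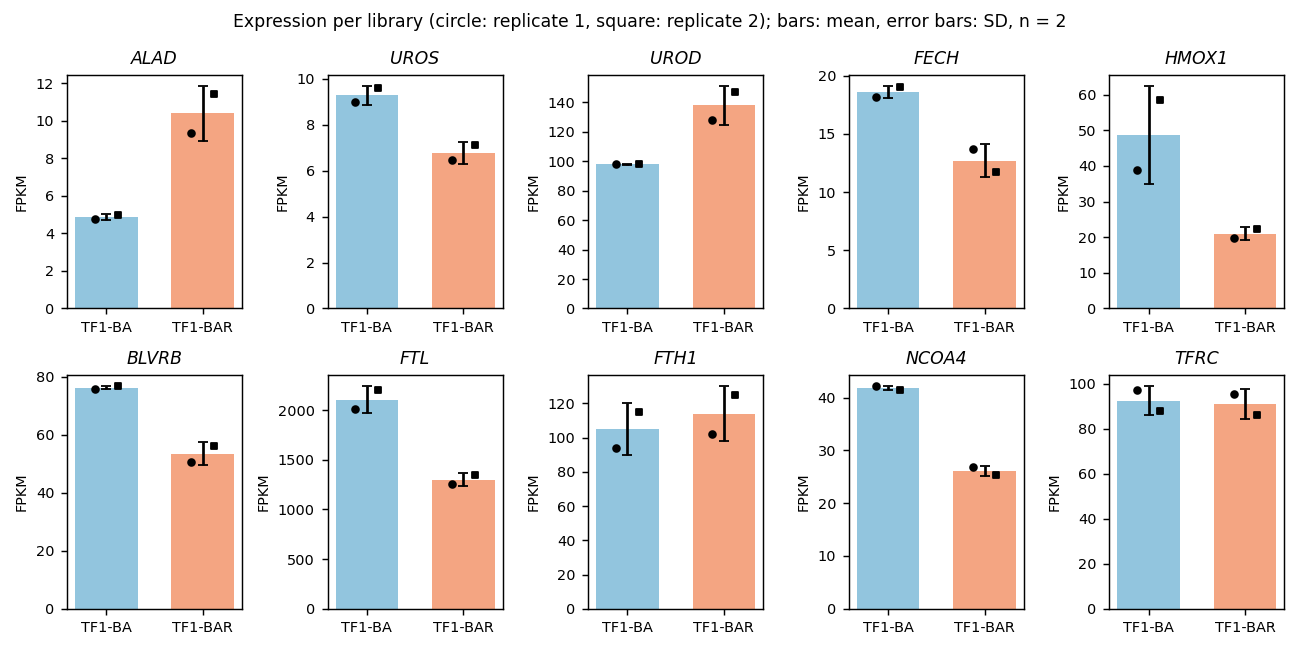
FPKM of 10 heme and iron genes in each library (linear axes from 0), with the mean as a bar and the SD (n = 2) as an error bar. ALAD and UROD were higher in both TF1-BAR libraries, UROS, FECH, HMOX1, BLVRB, FTL and NCOA4 were lower in both, and the libraries of FTH1 and TFRC overlapped between the cell lines.

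The sensors of iron did not pass the test, and all of them had log2 fold changes below 0, as did 6624 of the 15519 genes tested. IREB2 and ACO1 are the iron regulatory proteins that bind the hairpins, ACO1 doing so when it has lost its iron-sulfur cluster. IREB2 was at 17.3 and 16.7 FPKM in TF1-BA cells and 17 and 14.5 FPKM in TF1-BAR cells (log2 fold change −0.11, adjusted p = 0.412). ACO1 was at 8.31 and 8.54 FPKM against 7.2 and 6.84 FPKM, lower in both TF1-BAR libraries (log2 fold change −0.25, adjusted p = 0.0693). FBXL5, which marks both for degradation when iron is plentiful, was at 8.34 and 7.54 FPKM against 6.47 and 6.5 FPKM, again lower in both (log2 fold change −0.27, adjusted p = 0.0727). ACO1 and FBXL5 passed the threshold in some of the alternative settings, with an adjusted p as low as 0.0321 and 0.0386. IREB2 exceeded ACO1 by 1.96-fold to 2.36-fold in the 4 libraries.

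Among the makers of iron-sulfur clusters, only GLRX5, the mitochondrial glutaredoxin that passes on finished clusters, passed the test. It fell from 33.7 and 32.8 FPKM to 25.5 and 24.7 FPKM (log2 fold change −0.40, SE 0.0619, adjusted p = 0.0145). GLRX5 shares 12.6% of its exon bases with SNHG10 on the opposite strand, which was at 4.42 to 5.82 FPKM (log2 fold change 0.25, adjusted p = 0.117). ISCU, the scaffold on which clusters are built, was at 10.7 and 12.2 FPKM against 9.72 and 10.5 FPKM (log2 fold change −0.17, adjusted p = 0.241). NFS1, the desulfurase that supplies the sulfur, was at 4.42 and 4.11 FPKM against 4.16 and 4.18 FPKM (log2 fold change −0.03, adjusted p = 0.833), on chromosome 20, where the median of the 440 genes tested was 0.39.

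Other genes of these pathways were read from lists of their own. Of 34 further genes of heme and iron transport and regulation, 33 were in the table and 23 were tested: 4 rose, 6 fell and 13 did not pass, with a median log2 fold change of 0.03. The risers were 17.4% of those tested, near the 16.3% of all genes, and those that fell were 26.1%, against 10.5% of all genes. SLC48A1, which moves heme out of the lysosome, fell from 31.8 and 33.4 FPKM to 19.5 and 21 FPKM (log2 fold change −0.67, adjusted p = 0.00762). ABCB10, a mitochondrial transporter needed for heme synthesis, fell by 0.61 (adjusted p = 0.0168), and TSPO, a porphyrin-binding protein of the outer mitochondrial membrane, fell by 0.34 (adjusted p = 0.0183), both on the log2 scale. EIF2AK1, the kinase that slows translation when heme is lacking, rose from 38.1 and 38.7 FPKM to 52 and 59.1 FPKM (log2 fold change 0.52, adjusted p = 0.0144). LCN2, which binds iron-carrying siderophores, rose by 0.81 on the log2 scale (adjusted p = 0.0181). The other risers, SLC25A37 (the mitochondrial iron importer mitoferrin, log2 fold change 0.41, adjusted p = 0.0335) and CYBRD1 (a ferric reductase, 0.31, adjusted p = 0.0428), are named after their values were seen. The ratio was under 2-fold for all 10 of these in the fit. Over the alternative settings with all libraries, the adjusted p of SLC48A1 stayed at or below 0.0368. All the other calls rose past 0.05 in some setting, with 0.0605 for ABCB10, 0.0545 for TSPO and 0.0553 for EIF2AK1. LCN2 reached 0.0696, SLC25A37 0.0965 and CYBRD1 0.0901.

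Of 21 further genes of iron-sulfur cluster assembly, all were tested, none rose by limma (2 had an unadjusted p under 0.05 on the higher side) and 5 fell, or 23.8% against 10.5% of all genes, although the median log2 fold change was 0.04. FDXR fell by 0.62 (adjusted p = 0.00848) and FDX1 by 0.44 (adjusted p = 0.0249) on the log2 scale, the reductase and the ferredoxin that bring electrons to the assembly. GLRX3, a cytosolic glutaredoxin encoded on chromosome 10, fell by 0.62 (adjusted p = 0.0087). BOLA1 fell by 0.60 (adjusted p = 0.0123) and BOLA3 by 0.35 (adjusted p = 0.0478), both mitochondrial partners of the GLRX5 protein. The member GLRX5 thus fell beside both of these partners. Over the alternative settings with all libraries, the adjusted p reached 0.105 for BOLA3 and 0.0692 for FDX1. It stayed at or below 0.0474 for BOLA1, 0.0378 for FDXR and 0.0386 for GLRX3.

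HMOX1, FTL and FTH1 are known targets of the stress factor NRF2 or its competitor BACH1, so the genes of that system were set beside them. Of 12 such genes, 11 were tested: 6 fell, 1 rose and 4 did not pass, with a median log2 fold change of −0.38. The shares were 54.5% lower and 9.09% higher, against 10.5% and 16.3% of all genes tested. NQO1, a quinone reductase and a standard NRF2 target, fell from 8.67 and 10.3 FPKM to 3.22 and 3.4 FPKM (log2 fold change −1.39, SE 0.109, adjusted p = 0.00465) and was the only one differentially expressed. NFE2L2, which encodes NRF2 itself, fell from 27.9 and 25.8 FPKM to 16.5 and 17.1 FPKM (log2 fold change −0.66, adjusted p = 0.00776). GCLM of glutathione synthesis fell by 0.80 (adjusted p = 0.0122), the thioredoxin reductase TXNRD1 by 0.48 (adjusted p = 0.0151) and the cystine transporter SLC7A11 by 0.47 (adjusted p = 0.0251) on the log2 scale. Over the alternative settings with all libraries, the adjusted p stayed at or below 0.0362 for NQO1 and 0.0366 for NFE2L2. It reached 0.054 for GCLM, 0.052 for TXNRD1 and 0.0727 for SLC7A11. The single riser, named after its values were seen, was KEAP1, which marks NRF2 for degradation (log2 fold change 0.24, adjusted p = 0.0459, and up to 0.133 over these alternatives). BACH1, the repressor, was at 12.3 and 11.6 FPKM against 14.8 and 13.3 FPKM (log2 fold change 0.22, adjusted p = 0.115), and is likewise named after its values were seen. The part of this system in the values of HMOX1, FTL and FTH1 was not tested.

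**Figure D4:**
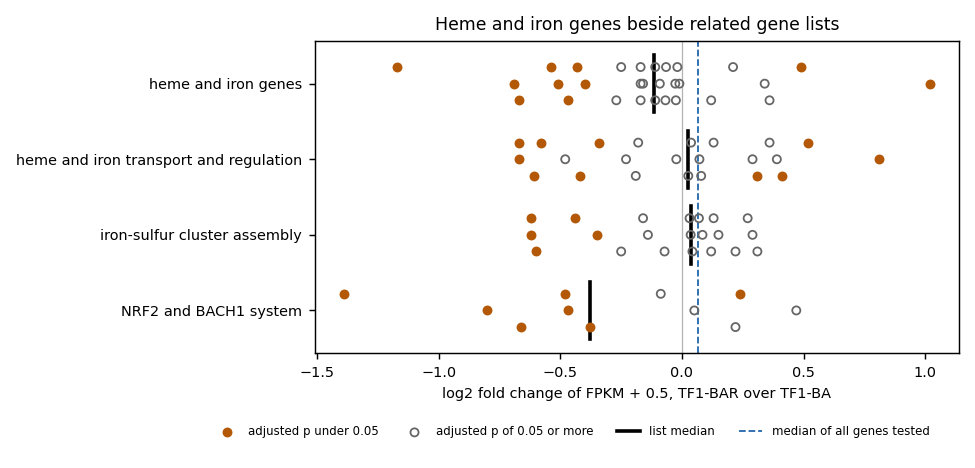
Log2 fold change (TF1-BAR over TF1-BA, on FPKM + 0.5) of every tested gene of the 4 lists, filled where the adjusted p was under 0.05, with each list's median as a black bar and the median of all genes tested (0.07) as a dashed line. The heme and iron genes (median −0.12) and the NRF2 and BACH1 genes (median −0.38) had the lowest medians, and those of the other lists, 0.03 and 0.04, were also below that line but close to it.

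Erythroid genes, whose products use much of the heme, changed in both directions. Of 16 erythroid markers 14 were tested, 3 were differentially expressed higher and 4 lower, which sets 21.4% and 28.6% beside 3.05% and 1.69% of all genes tested. Their summed level was 321 and 325 FPKM in TF1-BA cells and 208 and 228 FPKM in TF1-BAR cells, a sum that rests on a few abundant genes, since 7 of the 14 had log2 fold changes above 0 and their median was −0.04. The globin genes HBB (9.4 and 10 FPKM against 0.108 and 0.158 FPKM) and HBA2 (60.6 and 53.1 FPKM against 4.74 and 4.87 FPKM) fell furthest, with reads of HBA2 possibly shared with its near-identical copy HBA1. Macrophages also handle much iron, and of 10 macrophage and monocyte markers 8 were in the table and 3 tested. CSF1R (log2 fold change 1.25, adjusted p = 0.0124) and ITGAM (0.85, adjusted p = 0.0114) rose, and LYZ did not pass (0.16, adjusted p = 0.209). The risers were 66.7% of those tested, against 16.3% of all genes tested. The summed level of these 8 was 44.9 and 44.7 FPKM in TF1-BA cells and 67 and 77.9 FPKM in TF1-BAR cells, most of it ITGAM, while CD14 and CD163, which define these cells and are named for that reason though they were too low to test, had at most 1 fragment in any library. In such bulk samples fewer cells of a type and less RNA per cell cannot be told apart, and the part of either marker list in the values of the heme and iron genes was not tested.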

How the data were processed

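The authors extracted total RNA from each cell line and sequenced 2 libraries of each (NEBNext Ultra kit). They discarded adaptor and poor-quality reads, mapped the rest to GRCh38 with TopHat2 2.0.13 and ran Cufflinks 2.2.0, Cuffmerge and Cuffdiff 2.2.0 with default parameters. The values the authors deposited are FPKM, without log transformation, for 32673 genes in each library. The annotation release and the use of strand are not given in the sources used here. Samples were grouped by their labels, and 0 columns were left unmatched.

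As FPKM are not counts, limma 3.58.1 in R 4.3.3 (lmFit, eBayes with trend) was applied to log2(FPKM + 0.5) for the 15519 genes whose FPKM averaged 0.5 or more over the 4 libraries, with Benjamini-Hochberg adjustment over all of them. Genes were called differentially expressed when the log2 fold change was 1 or more in size with an adjusted p under 0.05. A fold change on this scale understates the change of low genes. On simulated libraries of this comparison, 59% of 200 genes changed 2-fold passed the adjusted p, beside 22 unchanged genes. With 200 genes changed 3-fold, 84% passed beside 17 unchanged genes, so more false calls were made in these simulations than the nominal rate. With 1.5-fold changes 0% passed, whereas some genes with smaller changes passed in the measured libraries. Each simulation changed only 200 genes, with a fixed scatter between replicates, while 26.9% of all genes tested passed the adjusted p in the measured libraries. The simulated rates therefore do not carry over directly to this comparison. Fragments were recovered from the sizes and lengths that turn every value of a gene into a whole number (within 0.0005 fragments): 14155 of 30853 genes above 0 did so at the GENCODE 44 exon length, 16698 at a fitted length, against 1 of 300 genes tried with wrong library sizes. The smallest length was taken, so fragment numbers are the fewest possible.

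The 30 genes and the other lists were chosen with earlier results of these data known. All 30 genes are named, and from each other list at most 5, differentially expressed genes first and then those with the smallest adjusted p. Other genes are marked in the text, apart from genes that overlap a member and markers that define a cell type, and some genes are not reported here. Alternatives were 1 or 0.1 FPKM added, no filter or a stricter one (mean of 1 FPKM), upper-quartile scaling, TPM, quantile normalization, eBayes without trend or robust, limma voom on recovered fragments, a replicate block and leaving out each library.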

Additional observations from a re-analysis of the deposited data

How the results depend on the processing

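Of the 30 heme and iron genes, the number differentially expressed was 2, and 1 with 1 FPKM added, no filter, upper-quartile scaling or quantile normalization. It ranged from 0 to 1 when a library was left out. The number with an adjusted p under 0.05 was 10, fell to 4 with no filter and was 8 to 13 in the other alternatives with all libraries. Leaving out a library gave 0 to 8, with the single library of the reduced group assumed to vary like the other group. Of all genes, 737 were differentially expressed, 487 with 1 FPKM added, 1139 by limma voom on recovered fragments, and 42 to 783 without 1 library. The 737 were 474 higher and 263 lower, against 359 and 338 with quantile normalization. On rescaling to TPM the log2 fold changes of CLPX (0.00156), NFS1 (0.0337), PGRMC1 (0.048), TFR2 (0.0556) and TFRC (0.043) turned positive, none past the test. When 1 library was left out the sign turned for some, with log2 fold changes from −0.196 to 0.0603 for ALAS1, −0.0284 to 0.265 for FTH1, −0.0738 to 0.0187 for NFS1, −0.0842 to 0.0459 for PGRMC1, −0.0567 to 0.0354 for TFR2 and −0.0998 to 0.0496 for TFRC. Same-numbered libraries deviated together with r = 0.0646 over 15519 genes, and no source says that a number marks a shared culture or day. With the replicate block, STEAP3 lost its call (adjusted p = 0.0512), so that 9 of the 29 had an adjusted p under 0.05, and 2 were differentially expressed, as were 755 of all genes. The cause of these shifts was not tested.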
